A study of Rattus norvegicus with 12 samples.

Results

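Expression in the livers of rats with a biliary fistula, in the columns titled BA, was compared with that of sham-operated Control rats at 0, 4, 12 and 24 h after partial hepatectomy (PH). This used 8 of the 12 samples of the series. At each time the log2 ratio of BA to Control was taken after 1 RPKM (reads scaled to transcript length and to the total of the library) was added to both values. The rule was applied to 8459 genes that averaged 1 RPKM or more across all 12 columns. Of these, 43 differed in the same direction at all 4 times and by at least 2-fold at 3 or more. Among the 43, 10 were higher in BA and 33 were lower.

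All rats were male Sprague Dawley rats, 4 to 5 months old, with a duodenal catheter through which saline was infused. Control rats had a sham fistula, and BA and BF rats a catheter that drained bile from the common bile duct for 24 h before PH. By the sample titles and the study's methods, BA rats also received sodium taurocholate into the duodenum (0.5 mg per g body weight per day from 12 h before PH), and BF rats did not. The sample descriptions give these conditions the other way round, with no infusion in BA. Groups are therefore named by their titles, and under either reading BA against Control compares a fistula with a sham operation. Whole liver was sequenced, and the authors averaged 2 sequencing runs into each column, 1 run of a single rat and 1 of pooled RNA from 3 rats. Each group and time thus has 1 value, and different rats were used at each time, so the 4 times serve as the only repeats. The depth of each sample is unknown, since the runs were averaged as RPKM.

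Bile acids made from cholesterol in hepatocytes are secreted into bile, taken up again in the ileum and returned to the liver by the portal vein. In the liver they act on the nuclear receptor FXR, which raises the repressor NR0B2 (SHP), and NR0B2 in turn lowers CYP7A1, the rate-limiting enzyme of bile acid synthesis. A fistula interrupts this circulation, and PH starts an acute phase response and then hepatocyte replication.

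Several of the 43 genes belonged to known pathways. Higher in BA were, among others, the protease inhibitor A2M, the sterol synthesis enzymes SC4MOL and IDI1, the serine synthesis enzyme PSAT1 and the stress regulator NUPR1. Lower in BA were, among others, enzymes of amino acid breakdown (BCKDHB, BHMT, GPT and CTH), glutathione transferases and the steroid hydroxylases CYP2C and CYP3A23/3A1. The clock genes DBP and NR1D1, and NR0B2, were lower too. The 10 higher genes were 0.118% of those tested and the 33 lower genes 0.390%. A difference in the same direction at all 4 times was much more common, since 289 genes were higher (3.42%) and 2445 were lower (28.9%).

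The excess of lower genes depended on the scale of the columns. Over all 8459 genes the median of the mean log2 ratio was -0.14, and it was -0.01 once the columns were rescaled to the same median gene. With that rescaling the rule found 21 higher and 21 lower genes, so that the share of lower genes fell from 76.7% to 50%. All 10 higher genes and 21 of the 33 lower genes were among them. The BA column at 4 h stood apart: its RPKM values summed to 982826 against 727435 to 769142 in the other 7 columns, and ALB (albumin) reached 303637 RPKM, or 30.9% of the sum, against 81796 RPKM in Control. The 4 h column also had the most genes that were at least 2-fold lower, 445 against 95 to 182 at the other times. A link between the albumin level and this count was not tested. Hepatocyte markers were abundant in every column, with 11 of 12 found and none at 0.

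**Figure D1:**
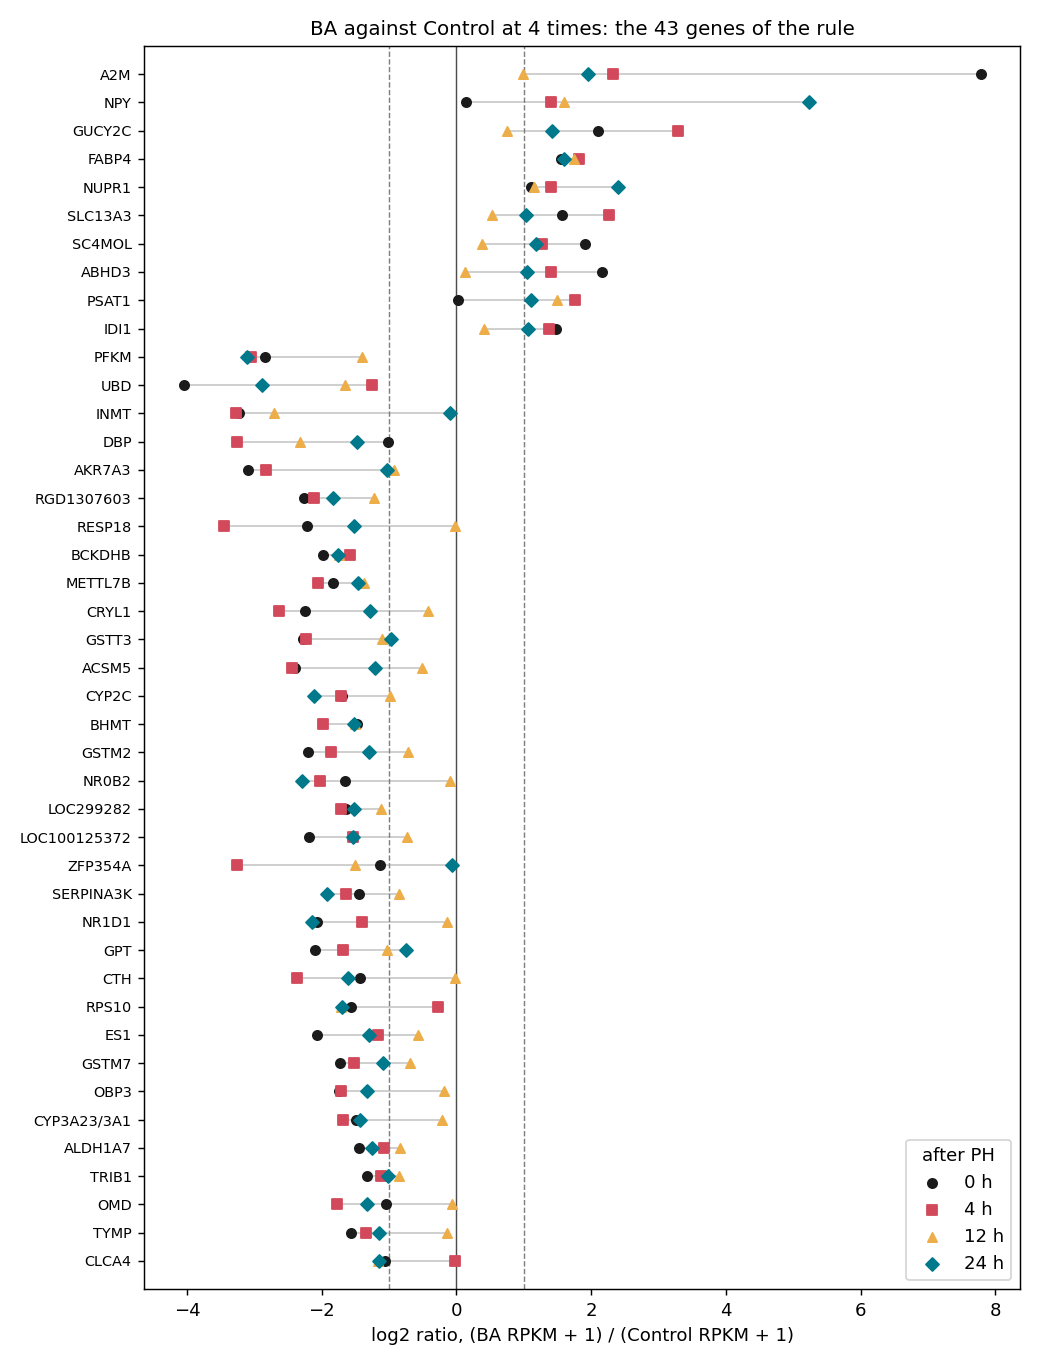
Log2 ratio of BA to Control for the 43 genes of the rule, with 1 point for each time after PH, a line over the range of the 4 times, and dashed lines at 2-fold. The points of FABP4 and BCKDHB lie close together, those of A2M and NPY spread widely, and the 12 h points of most lower genes lie nearest to 0.

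Among the higher genes, FABP4, a fatty acid carrier of adipocytes and macrophages, had the steadiest ratio. Its level was 2.46, 21.25, 13.54 and 14.19 RPKM in Control and 9.13, 77.34, 47.56 and 45.11 RPKM in BA at 0, 4, 12 and 24 h. BA was thus about the same multiple of Control at every time, although the level in both groups was several-fold higher after PH, and the ranges over time overlapped. The mean log2 ratio was 1.68 ± 0.12 (SD over 4 times), a 3.20-fold higher level. FABP4 rose by limma, which set the difference between groups against its spread over the 4 times (SE 0.09, adjusted p = 0.00844). It was the only gene of 8459 called higher (0.0118%). Under 13 alternative settings its adjusted p ranged from 0.00849 to 1 and stayed below 0.05 in 6. Without 0, 12 or 24 h it was 0.0839, 0.0757 and 0.111. In BF the level of FABP4 was 3.52, 8.26, 33.6 and 12.7 RPKM, above Control at 0 and 12 h only. The 8 adipocyte markers summed to 52.7 to 133.1 RPKM in Control and 50.9 to 75.4 RPKM in BA. Of the 4 above the level filter, 2 were higher in BA at an unadjusted p under 0.05 by limma and none was lower (LPL, a lipase, with a mean log2 ratio of 0.47, and CFD, a complement protease, with 0.24). Over all genes 203 of 8459 were higher at that p by limma. The median of the 4 markers was 0.10, and their part in the level of FABP4 was not tested.

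A2M (alpha-2-macroglobulin) is the protease inhibitor best known as the major acute phase protein of the rat. It measured 7.61, 940, 4637 and 1142 RPKM in Control and 1892, 4688, 9188 and 4421 RPKM in BA. BA thus exceeded the 4 h and 24 h levels of Control already at 0 h, before PH, and the ratio was largest there (log2 7.78) and smallest at 12 h (0.99). The mean log2 ratio was 3.26 ± 3.07 (SD over 4 times), and 1.75 without 0 h, with an adjusted p of 0.226 by limma. BF held 1772, 3486, 7272 and 1272 RPKM.

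NPY, a neuropeptide of sympathetic nerves, stood at 3.81, 4.69, 3.04 and 3.06 RPKM in Control and at 4.3, 14.03, 11.19 and 151.55 RPKM in BA. The 24 h column decided its size, since the mean log2 ratio was 2.09 ± 2.19 (SD over 4 times) over all times and 1.04 without 24 h (adjusted p 0.239 and 0.394 by limma). BF held 2.24 to 3.5 RPKM. Neuroendocrine and sympathetic markers summed to 1.25 to 1.77 RPKM in BA and 1.56 to 1.83 RPKM in Control. GUCY2C, the gut receptor for guanylin, was at 0.29, 0.73, 4.63 and 3.66 RPKM in Control and 4.53, 15.84, 8.44 and 11.4 RPKM in BA. Its mean log2 ratio was 1.89 ± 1.08 (SD over 4 times), and its levels in Control were low, at most 4.63 RPKM. Markers of intestinal epithelium summed to 60.3 to 192.8 RPKM in Control and 85.6 to 349.6 RPKM in BA. Of the 3 above the level filter, 2, 2, 0 and 0 were higher in BA at 0, 4, 12 and 24 h. The lectin LGALS4 was lower at all 4 times, with a mean log2 ratio of -0.90, and 0 were higher at all 4 times. The part of these markers in the level of GUCY2C was not tested.

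NUPR1, a small nuclear protein of the stress response, was at 58.89, 67.08, 37.08 and 25.69 RPKM in Control and 128.21, 179.92, 83.69 and 139.88 RPKM in BA. FABP4 and NUPR1 were the 2 higher genes that passed 2-fold at all 4 times. For NUPR1 every BA column lay above every Control column. That also held for SLC13A3, which carries dicarboxylates into the cell, at 10.98 to 26.93 RPKM in Control and 36.7 to 56.79 RPKM in BA. Over all genes, 32 had no overlap of the 4 columns with BA higher (0.378%), and 3 of the 10 higher genes did.

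PSAT1, an aminotransferase of serine synthesis, was at 1.64, 1.98, 2.57 and 5.71 RPKM in Control and 1.69, 9.13, 9 and 13.52 RPKM in BA. The groups were alike at 0 h and apart after PH, with log2 ratios of 0.03, 1.77, 1.49 and 1.11. BF was below Control at all 4 times (1.45, 1.55, 2.32 and 4.89 RPKM). The difference of BA from BF was 1.25 on the log2 scale (SE 0.28), with an adjusted p of 0.539 by limma. ABHD3, a phospholipase, was at 4.19, 7.88, 17.06 and 23.2 RPKM in Control and 22.14, 22.52, 18.73 and 48.78 RPKM in BA. The groups were thus close at 12 h, and the adjusted p of BA against Control was 0.201 by limma. BF held 28.09, 27.24, 34.05 and 18.69 RPKM.

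SC4MOL (Msmo1), which removes methyl groups from sterol precursors, was at 137, 37.7, 95.8 and 97.9 RPKM in Control and 520, 92.6, 125 and 224 RPKM in BA. IDI1, which makes the isoprenoid unit of sterols, was at 57.21, 30.41, 51.7 and 41.78 RPKM in Control and 160.68, 80, 69.21 and 88.59 RPKM in BA. For both genes the ratio was largest at 0 h (log2 1.92 and 1.47) and smallest at 12 h (0.38 and 0.41). Their mean log2 ratios were 1.19 ± 0.63 and 1.08 ± 0.48 (SD over 4 times), and adjusted p was 0.185 and 0.153 by limma. In BF the means were 1.52 and 1.23.

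The promoters of these 2 genes are shown because their levels were higher together. Each runs from 250 bases before the start of the gene to 50 after it, as RefSeq gives it on the rat build GRCr8, and CCAAT boxes (CCAAT or ATTGG, both strands) are in capitals.
Msmo1, chr16:29746863-29747162, plus strand: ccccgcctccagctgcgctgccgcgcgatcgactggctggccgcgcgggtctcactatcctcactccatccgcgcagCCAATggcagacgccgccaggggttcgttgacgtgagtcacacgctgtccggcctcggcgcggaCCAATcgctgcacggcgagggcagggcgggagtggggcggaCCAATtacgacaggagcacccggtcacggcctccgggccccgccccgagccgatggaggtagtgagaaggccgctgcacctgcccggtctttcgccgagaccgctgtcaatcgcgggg
Idi1, chr17:66547475-66547774, minus strand: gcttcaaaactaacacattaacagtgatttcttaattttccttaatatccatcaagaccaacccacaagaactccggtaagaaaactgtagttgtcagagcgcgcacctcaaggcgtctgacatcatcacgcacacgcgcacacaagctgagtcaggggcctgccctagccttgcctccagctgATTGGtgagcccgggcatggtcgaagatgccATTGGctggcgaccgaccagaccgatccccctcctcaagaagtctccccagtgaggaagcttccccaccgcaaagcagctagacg
The Msmo1 window held 3 CCAAT boxes, 173, 109 and 68 bases before the start, and the Idi1 window held 2, at 66 and 35 bases. A CCAAT box was present in 37.5% of 33469 promoters of this length, in 4 of the 7 promoters found for higher genes and in 15 of the 25 found for lower genes. The letters TCACNCCAC, a form of the sterol regulatory element, were in 1.12% of promoters and in none of those of the 43 genes that were found. The other motifs sought were CACGTG (an E-box, in 6.42% of promoters, 2 of 7 and 4 of 25) and TTCNNNGAA (a STAT site, in 8.87%, 0 of 7 and 4 of 25). A match of letters is a description and not a site that was shown to be bound.

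The list of 24 cholesterol synthesis genes as a whole was higher in BA at 0, 4 and 24 h. Its median log2 ratio was 1.35 at 0 h, 0.88 at 4 h, -0.03 at 12 h and 0.57 at 24 h, against -0.10, -0.22, -0.06 and -0.17 over all genes. The number of its genes that were higher was 23, 22, 11 and 22 of 24. Besides SC4MOL and IDI1, HMGCS1, the enzyme that makes HMG-CoA, was at 211, 58.0, 134 and 112 RPKM in Control and 992, 98.2, 199 and 335 RPKM in BA. By limma 17 of the 24 genes were higher at an unadjusted p under 0.05 and none was lower, and none passed the adjusted threshold. Over all genes those numbers were 203 and 1467 of 8459.

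The 25 positive acute phase genes had a similar course, with median log2 ratios of 1.61, 0.78, 0.01 and 0.37. LCN2, an iron-binding defence protein, was at 3.03, 134, 2220 and 1852 RPKM in Control and 1388, 1660, 3847 and 3385 RPKM in BA. In BA at 0 h it was thus between the Control levels at 4 and 24 h, but it passed 2-fold at 0 and 4 h only and so was not among the 43 genes. ORM1 (orosomucoid) was at 986 RPKM in Control and 15033 RPKM in BA at 0 h. HAMP (hepcidin) was lower in BA at all 4 times, with a mean log2 ratio of -1.03. The list had 11 of 25 genes higher at all 4 times and 1 lower, against 3.42% and 28.9% of all genes. By limma 11 were higher and 1 lower at an unadjusted p under 0.05, against 203 and 1467 of all 8459 genes. After adjustment 0 were called.

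**Figure D2:**
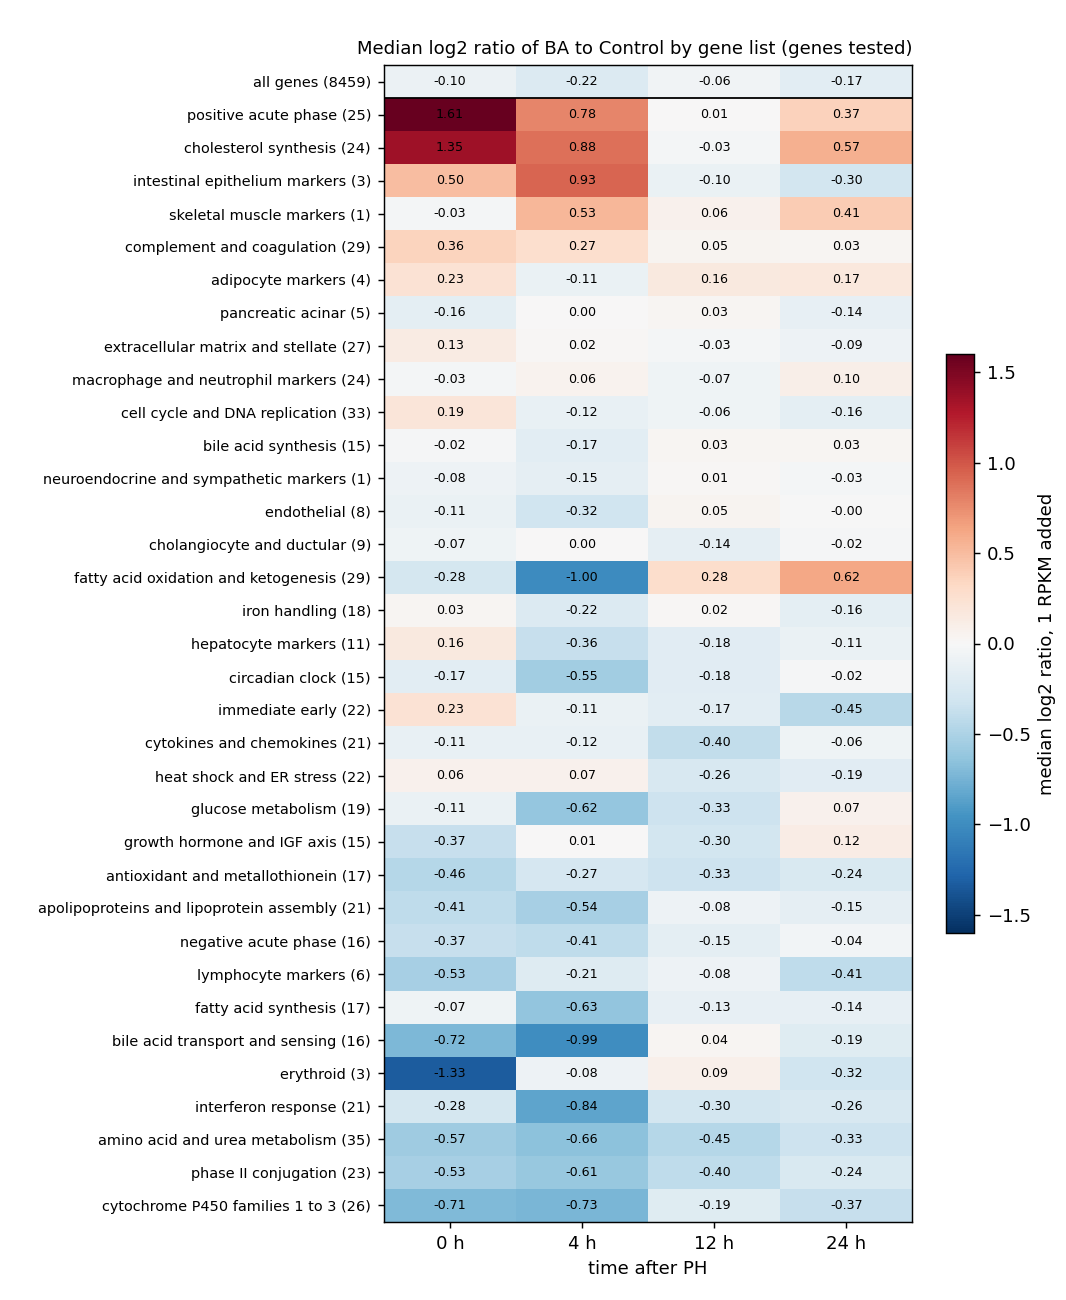
Median log2 ratio of BA to Control for all tested genes and for 34 gene lists at each time after PH, with the number of tested genes in parentheses and lists ordered by their mean ratio. Acute phase and cholesterol synthesis genes are red at 0 h and near white at 12 h, and cytochromes P450, conjugation and amino acid genes are blue at all 4 times.

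Among the lower genes, BCKDHB, the E1 beta subunit of the enzyme that breaks down branched-chain amino acids, was the steadiest. It was at 77.73, 62.33, 56.71 and 68.52 RPKM in Control and at 18.97, 20.26, 16.15 and 19.51 RPKM in BA. The highest BA column lay well below the lowest Control column, and the level differed little between times in either group. BCKDHB fell by 1.77 on the log2 scale (SD over 4 times 0.17, SE 0.10, adjusted p = 0.00844 by limma), a 3.40-fold lower level. Over 13 alternatives its adjusted p was 0.00849 to 0.111, and below 0.05 in 9. The p was 0.0839, 0.0757 and 0.111 without 0, 12 or 24 h. In BF it was 20.74, 21.19, 27.82 and 45.68 RPKM. BCKDHA, the other E1 subunit, had a mean log2 ratio of -0.29 and was higher at 2 times and lower at 2.

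BHMT, which remakes methionine from homocysteine with betaine, was at 843, 1728, 223 and 289 RPKM in Control and 302, 435, 77.9 and 101 RPKM in BA. Both groups were highest at 4 h and lowest at 12 h, and BA stayed at a near constant fraction of Control. BHMT fell by 1.62 on the log2 scale (SD over 4 times 0.24, SE 0.13, adjusted p = 0.0416 by limma). Over the alternatives its adjusted p was 0.0317 to 1, below 0.05 in 4 of 13, and 0.266, 0.065, 0.0895 and 0.22 without 0, 4, 12 or 24 h. BF, at 857, 1471, 52 and 299 RPKM, was near Control except at 12 h. BCKDHB and BHMT were the 2 genes that limma called lower (0.0236%), and 1467 were lower at an unadjusted p under 0.05.

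Other genes of amino acid breakdown were also lower. GPT, alanine aminotransferase, was at 188, 226, 120 and 82.1 RPKM in Control and 42.8, 69.6, 58.4 and 48.4 RPKM in BA, with no overlap. CTH, which makes cysteine from cystathionine, was at 1029, 392, 62.9 and 772 RPKM in Control and 380, 75.6, 61.6 and 254 RPKM in BA, so the groups were alike at 12 h only. Of the 35 genes of amino acid and urea metabolism, 19 were lower at all 4 times and 2 were higher. Over all genes 28.9% were lower and 3.42% higher. The median of the mean log2 ratio of the 35 was -0.50 (-0.35 after rescaling). After rescaling 18 were lower and 3 higher, against 915 and 826 of all 8459 genes. By limma 21 were lower and 1 higher at an unadjusted p under 0.05, against 1467 and 203 of all 8459 genes. SDS (serine dehydratase) had a mean log2 ratio of -1.77, OTC, a urea cycle enzyme, -0.90, and CPS1, the entry enzyme of that cycle, -0.52. ASNS (asparagine synthetase) differed in the other direction, with 1.08.

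**Figure D3:**
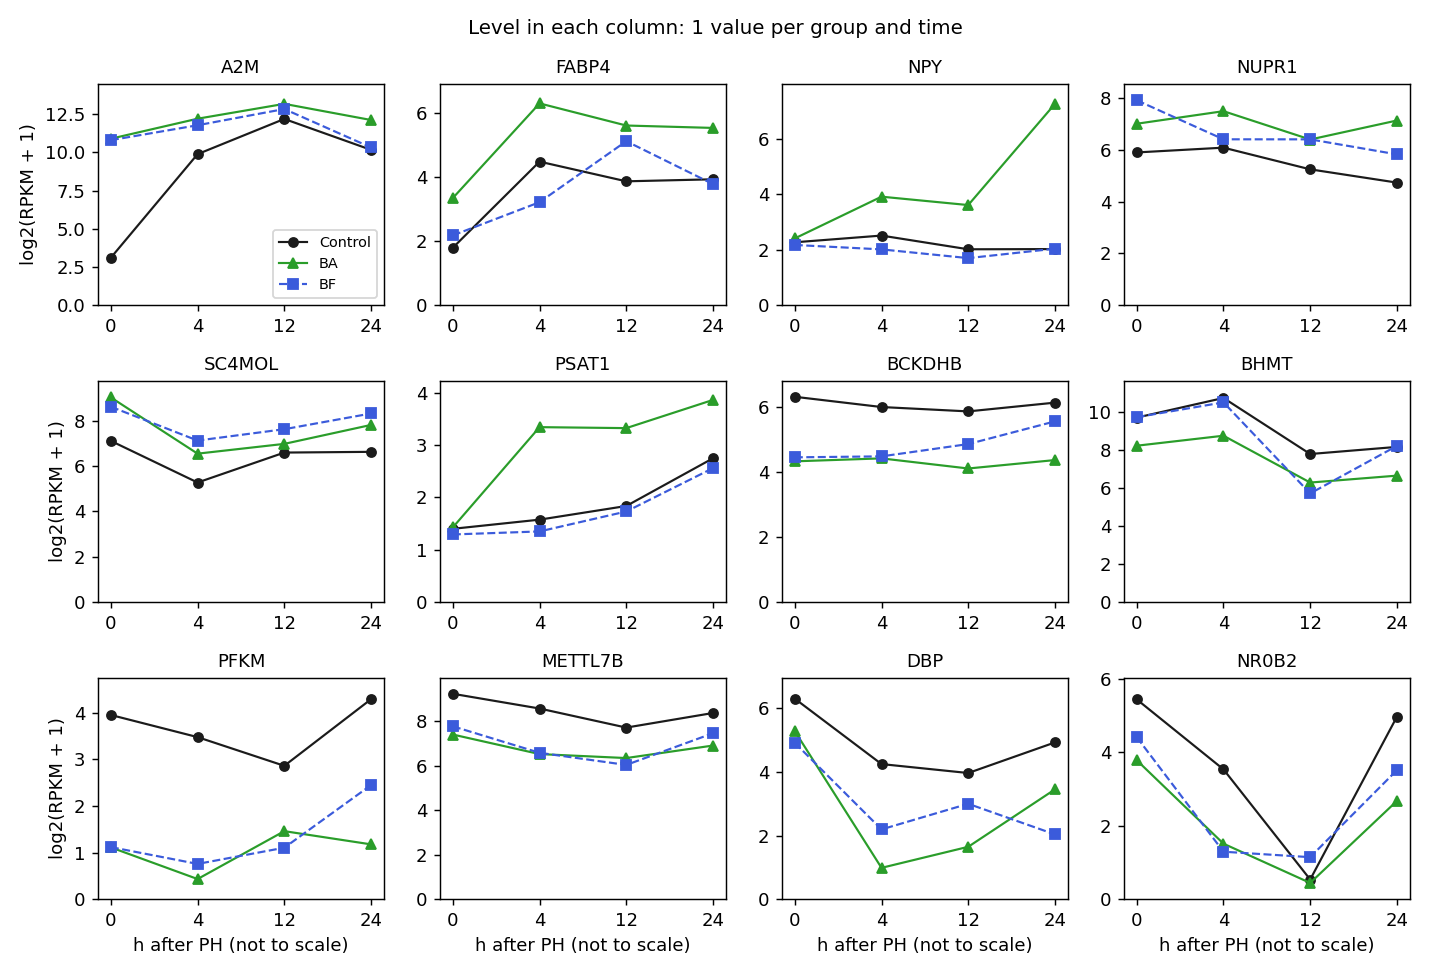
Level of 12 of the genes in Control (circles), BA (triangles) and BF (squares) at each time after PH, as log2(RPKM + 1), with 1 column a point and the time axis not to scale. BCKDHB and METTL7B in BA lie below Control at every time, FABP4 runs parallel to Control, and NPY in BA leaves the other groups at 24 h.

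METTL7B, a methyltransferase of the endoplasmic reticulum, was at 605, 382, 210 and 332 RPKM in Control and 169, 91.5, 80.7 and 120 RPKM in BA. The mean log2 ratio was -1.68 ± 0.32 (SD over 4 times) and the adjusted p 0.051 by limma, just above the threshold. PFKM, the muscle form of phosphofructokinase in glycolysis, had the lowest mean ratio (-2.60 ± 0.81, SD over 4 times). It was at 14.45, 10.12, 6.26 and 18.53 RPKM in Control and 1.16, 0.35, 1.75 and 1.26 RPKM in BA. BF was also low (1.17, 0.69, 1.15 and 4.45 RPKM). Markers of skeletal muscle summed to 1.44 to 2.47 RPKM in Control and 0.93 to 3.41 RPKM in BA, so PFKM exceeded their sum in Control. UBD, a ubiquitin-like protein that interferon gamma and TNF raise, was at 40.46, 14.98, 6.34 and 6.49 RPKM in Control and 1.52, 5.71, 1.33 and 0.01 RPKM in BA.

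The 4 columns of BA and Control did not overlap for 7 of the 33 lower genes, PFKM, UBD, BCKDHB, METTL7B, GSTM2, LOC100125372 and GPT. Over all genes 172 had BA below every Control column (2.03%). INMT, which methylates tryptamine, was far lower at 0, 4 and 12 h (92.74, 44.61 and 10.22 RPKM in Control, 9.01, 3.71 and 0.72 RPKM in BA) and near 0 in both groups at 24 h (0.25 and 0.17 RPKM).

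DBP is a transcription factor whose level follows the clock. It was at 77.59, 17.94, 14.59 and 29.34 RPKM in Control and 37.78, 0.98, 2.13 and 9.92 RPKM in BA, lower by at least 2-fold at each time. NR1D1 (Rev-erb alpha), a repressor of the clock, was at 70.03, 12.32, 3.75 and 25.35 RPKM in Control and 15.97, 4.03, 3.3 and 4.96 RPKM in BA. Of 15 clock genes, 6 were lower at all 4 times and none was higher, against 28.9% and 3.42% of all genes. After rescaling 4 were lower and 1 higher, against 915 and 826 of all 8459 genes. The median of their mean log2 ratio was then -0.01. By limma 4 were lower at an unadjusted p under 0.05, against 1467 of all 8459 genes, and none after adjustment. Other clock genes, chosen after their values were seen, had ratios nearer to 0. ARNTL had a mean log2 ratio of 0.28, CLOCK of -0.10 and PER2 of -0.30. The sources used here do not give the hour of day at which livers were taken.

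NR0B2 was at 42.26, 10.57, 0.45 and 30.18 RPKM in Control and 12.74, 1.85, 0.36 and 5.38 RPKM in BA. It was lower at 0, 4 and 24 h, while at 12 h both groups were under 1 RPKM. BF was at 20.22, 1.45, 1.21 and 10.4 RPKM. CYP7A1 was at 60, 4.59, 8.53 and 57.3 RPKM in Control and 54.92, 1.81, 3.17 and 68.83 RPKM in BA, with a mean log2 ratio of -0.51. In BF it was at 387, 13.8, 136 and 334 RPKM, above both other groups at every time, with a mean log2 ratio to Control of 2.61. The difference of BA from BF was -3.12, with an adjusted p of 0.194 by limma. Of 15 bile acid synthesis genes, 1 was higher and 1 lower at all 4 times, against 3.42% and 28.9% of all genes. The median of their mean log2 ratio was -0.05, against -0.14 over all genes. The 16 genes of bile acid transport and sensing had a median of -0.39. By limma 5 of the 16 were lower at an unadjusted p under 0.05, against 1467 of all 8459 genes.

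Enzymes that handle drugs and steroids made up a further group. CYP2C, listed in RefSeq as Cyp2c11, the main steroid hydroxylase of male rat liver, was at 2997, 2090, 916 and 623 RPKM in Control and 926, 634, 462 and 143 RPKM in BA. CYP3A23/3A1, a pregnane-inducible hydroxylase, was at 1187, 981, 353 and 576 RPKM in Control and 421, 306, 304 and 213 RPKM in BA. Of the 26 cytochromes P450 of families 1 to 3, 15 were lower at all 4 times and none was higher. Over all genes 28.9% were lower and 3.42% higher. The median of the mean log2 ratio of the 26 was -0.53. After rescaling 8 were lower and 1 higher, against 915 and 826 of all 8459 genes, with a median of -0.38. By limma 11 were lower and 1 higher at an unadjusted p under 0.05, against 1467 and 203 of all 8459 genes. CYP2E1, which oxidises ethanol, had a mean log2 ratio of -0.86.

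The glutathione transferases GSTM2, GSTM7, GSTT3 and RGD1307603 (Gstp3 in RefSeq) had mean log2 ratios of -1.52, -1.26, -1.65 and -1.85. GSTM2 was at 825, 655, 235 and 353 RPKM in Control and 178, 179, 142 and 143 RPKM in BA. Of the 23 genes of phase II conjugation, 9 were lower at all 4 times and none was higher, against 28.9% and 3.42% of all genes. After rescaling 7 were lower and 1 higher, against 915 and 826 of all 8459 genes. By limma 11 were lower at an unadjusted p under 0.05 and 0 higher, against 1467 and 203 of all 8459 genes. None passed after adjustment. AKR7A3, which reduces aflatoxin aldehyde, was at 126.75, 66.15, 8.28 and 52.01 RPKM in Control and 14.02, 8.48, 3.88 and 24.9 RPKM in BA. Members of such families share sequence, so reads may have been divided among GSTM genes, among CYP2C or CYP3A genes, between the carboxylesterases ES1 and LOC100125372, and between the serine protease inhibitors SERPINA3K and LOC299282.

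Among the secreted proteins of the liver, the serine protease inhibitors SERPINA3K and LOC299282 had mean log2 ratios of -1.47 and -1.5. SERPINA3K was at 6504, 4108, 1667 and 689 RPKM in Control and 2374, 1315, 919 and 181 RPKM in BA. OBP3, of the alpha-2u-globulin family, had a mean of -1.24, at 2668, 2381, 943 and 485 RPKM in Control and 793, 724, 831 and 192 RPKM in BA. RESP18, an endocrine protein, was at 17.94, 19.9, 2.26 and 7.34 RPKM in Control and 3.07, 0.91, 2.2 and 1.92 RPKM in BA, alike at 12 h only. CRYL1, a dehydrogenase of the glucuronate pathway, had a mean of -1.65, and ACSM5, which activates medium-chain fatty acids, of -1.64.

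The remaining 9 lower genes had mean log2 ratios between -1.5 (LOC100125372) and -0.85 (CLCA4). They were the carboxylesterases LOC100125372 and ES1, the zinc finger protein ZFP354A, the ribosomal protein RPS10, the aldehyde dehydrogenase ALDH1A7, the pseudokinase TRIB1, the matrix proteoglycan OMD, the thymidine phosphorylase TYMP and CLCA4, an accessory protein of chloride channels. CLCA4 was at or under 5.09 RPKM in every Control and BA column. RPS10 has many near copies in the genome, so that its value is uncertain.

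At the limit of the rule, the third-largest log2 ratio was 1.03 for SLC13A3 inside it and 0.99 for PCK2 outside it. On the lower side it was -1.01 for TRIB1 inside and -0.99 for GSTM1 outside. PCK2, the mitochondrial phosphoenolpyruvate carboxykinase, was at 6.87, 5.27, 9.39 and 18.66 RPKM in Control and 16.06, 19.52, 19.62 and 23.82 RPKM in BA. GSTM1 had a mean log2 ratio of -1.06, close to its relatives within the rule.

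The size of the differences depended on the time. The lower genes had a median log2 ratio of -1.75 at 0 h, -1.72 at 4 h, -0.86 at 12 h and -1.43 at 24 h, and 33, 31, 14 and 29 of the 33 passed 2-fold. The 10 higher genes had medians of 1.56, 1.59, 0.87 and 1.30. The rule chose these genes by the same ratios and allowed a time under 2-fold. Their medians and counts by time follow in part from that choice, so they cannot show by themselves that 12 h differed. The Control level of the lower genes had a median of 126.8, 93.9, 29.4 and 52.0 RPKM at the 4 times, and 23 of the 33 genes were lowest in Control at 12 h. In BA the medians were 37.8, 20.3, 13.2 and 17.7 RPKM, a smaller range over time. A link between the Control level and the size of the ratio was not tested. Among all tested genes, which were not chosen by these ratios, fewer differed at 12 h, 50 higher and 95 lower by at least 2-fold. At 0 h those counts were 158 and 182.

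**Figure D4:**
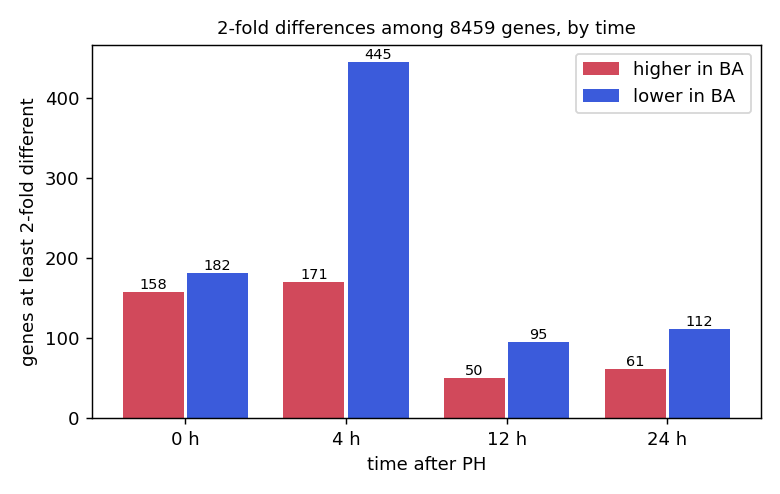
Number of the 8459 tested genes at least 2-fold higher (red) or lower (blue) in BA than in Control at each time after PH. The count of lower genes is largest at 4 h (445), and both counts are smallest at 12 h.

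BF, the other group with a fistula, was compared with the same Control columns, so its values are given only side by side. The median of the mean log2 ratio over the 33 lower genes was -1.5 in BA and -1.24 in BF, and over the 10 higher genes 1.43 and 1.18. The 43 genes were chosen by their BA to Control ratios and not by those of BF. These medians therefore cannot show which group differed more from Control. Between BA and BF directly, limma called none of the 43 genes after adjustment over all genes. The lowest adjusted p was 0.0623, for CTH, with BA lower by 1.11 on the log2 scale. These genes thus were not shown to separate the fistula groups.

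Markers of other cell types differed in how far they lay from the median of all genes. The 31 macrophage and neutrophil markers found summed to 724 to 874 RPKM in Control and 697 to 938 RPKM in BA, and the 24 tested had a median of the mean log2 ratio of -0.01. The 8 endothelial genes had a median of -0.08, the 9 cholangiocyte genes -0.08 and the 27 matrix and stellate genes -0.01, against -0.14 over all genes. The 6 lymphocyte genes had -0.33 and the 3 erythroid genes -0.39, with -1.33 at 0 h. The 3 intestinal genes had 0.26, the 1 skeletal muscle gene tested 0.24 and the 5 pancreatic acinar genes 0. In whole liver, fewer cells of a type and less RNA per cell cannot be told apart. The 33 genes of the cell cycle and DNA replication had a median of -0.04, with 1 higher and 4 lower at all 4 times, and by time 0.19, -0.12, -0.06 and -0.16. Over all genes 3.42% were higher and 28.9% lower at all 4 times. Of the 4 lower, CCND1 (cyclin D1) had the mean log2 ratio of largest size in the list, -1.16 ± 1.04 (SD over 4 times). Its adjusted p was 0.222 by limma. CCND1 was at 24.57, 9.33, 11.18 and 49.92 RPKM in Control and 14.34, 0.83, 10.7 and 19.07 RPKM in BA. The 22 immediate early genes had a median of -0.17.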

How the data were processed

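RNA of whole rat liver was sequenced as poly(A)-selected libraries. The authors deposited 1 table of RPKM values, each column the mean of 2 runs; per the labels the submitters' processing notes name CASAVA, Bowtie 0.12.2 and the builds rn4 and mm8, with no role given. RPKM divides by each library's total, so 1 very abundant gene can lower the others, and whether it did so here was not tested. Of 14692 genes listed, 1 had no value, 2303 were at 0 in all columns, and 8459 had a mean of at least 1 RPKM. Depth per sample is unknown, and counting error could not be given.

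Log2 ratios used a pseudocount of 1 RPKM, so the changes of low genes are understated. limma 3.58.1 (R 4.3.3, variance trend) was fitted to log2(RPKM + 1) of the 8 columns with time and group as terms (3 residual and 2.94 prior degrees of freedom), and p-values were adjusted over all 8459 genes by Benjamini-Hochberg. The test uses the columns the rule used, so it is no independent evidence for the 43 genes. Its spread is that between times, each of other rats. The fit was tested on simulated data. Tables and plots used Python 3.11.15, numpy 2.4.6, pandas 2.3.3 and matplotlib 3.10.9.

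The rule for named genes took up to 15 of the higher (all 10) and the 15 of the lower genes with the largest mean log2 ratios, members of each list that the rule found or else the member of largest ratio, CYP7A1, NR0B2 and ALB, and the genes at the limit of the rule. Many list members taken this way were left out of the text above. Among those left out, KNG1 had a mean log2 ratio of 1.60, FGF21 of 0.99, DCN of 0.93, SCD1 of -0.98 and PFKFB1 of -1.25. The other lower genes are named to account for all 43. Others (among them ARNTL, CLOCK, PER2, CPS1, OTC, ASNS, HMGCS1, SDS, LCN2, HAMP, ORM1, BCKDHA and CYP2E1) were chosen after their values were seen. The comparison, the rule and the lists were chosen with earlier results of these data known, and the markers of adipocytes, skeletal muscle, intestinal epithelium and nerves were added after the values were seen. Promoters were matched by symbol for 32 of the 43 genes. Alternatives were other pseudocounts, filters, fits and scalings, and leaving out each time. The upper quartile scaling was chosen after seeing the data.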

Additional observations from a re-analysis of the deposited data

Results flagged for a closer look

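Of 70 genes named or in the rule, 5 had a log2 ratio of BA to Control at 1 time that stood apart from those at the other 3 times. Chance gives such a time in about 1 in 20 groups of values, but that rate does not hold here, since most of these genes were chosen by a rule on the same ratios that allows 1 time under 2-fold. PFKM was less low at 12 h (-1.40, against -3.11 to -2.84 at the other times) and CYP3A23/3A1 was nearly level at 12 h (-0.21, against -1.68 to -1.43). BHMT was lowest at 4 h (-1.99, against -1.51 to -1.48), where RPS10 (-0.28, against -1.71 to -1.57) and CLCA4 (-0.028, against -1.16 to -1.07) were nearly level with Control. CLCA4 was at 0.03 RPKM in Control and 0.01 RPKM in BA at 4 h.

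PSAT1 was higher than Control in BA at all 4 times and lower than Control in BF at all 4 times. The groups share the Control columns. The difference of BA from BF was 1.25 on the log2 scale, with an adjusted p of 0.539 by limma.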

How the results depend on the processing

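The number of genes that met the rule moved with the scale and the pseudocount. The 10 higher genes became 19 with 0.1 RPKM added and 5 with 5 RPKM, 21 after rescaling on the median gene or on the upper quartile, 2 if 2-fold was asked at all 4 times, and 21 to 53 when 1 time was left out. The 33 lower genes became 19 with 5 RPKM added, 21 and 20 under the scalings, 8 with 2-fold at all 4 times, and 53 to 116 when 1 time was left out. Leaving out 12 h gave the most, 53 higher and 116 lower, where the rule asked for the same direction at the 3 times left and 2-fold at 2 of them, and so for less than before. The 1 gene called higher by limma was lost (0) in the fit on all 12 columns, without the time block, with 5 RPKM added, without a filter, and without 0, 12 or 24 h (0 to 1 when 1 time was left out). The 2 genes called lower became 6 in the fit on all 12 columns and with 0.1 RPKM added, 4 without a variance trend, 1 without the time block, with 5 RPKM added and on the upper quartile scale, 0 without a filter, and 0 to 2 when 1 time was left out. At an unadjusted p under 0.05 limma had 203 higher and 1467 lower genes, and 466 and 463 after rescaling on the median gene. The cause of these changes was not tested. The mean log2 ratios of all 43 genes kept their sign on rescaling on the median gene. Of 238 list medians 17 turned sign, 10 of them on rescaling. BA and Control were paired by time in the limma fit, and the labels give no other pairing of rats across groups. The depth per sample is unknown.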

Other observations

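Some genes outside the rule also differed in the same direction at all 4 times. The class I histocompatibility genes RT1-A1, RT1-A2, RT1-CE5 and RT1-CE10, which present peptides to T cells, were lower in BA at all 4 times, with mean log2 ratios of -0.79, -0.70, -0.71 and -0.90 and adjusted p of 0.13, 0.117, 0.108 and 0.0784 by limma. They share sequence, so their reads may be divided among them. Of 21 interferon response genes, 12 were lower at all 4 times and none was higher, against 28.9% and 3.42% of all genes. The median of their mean log2 ratio was -0.47. After rescaling on the median gene it was -0.32, and 7 were lower at all 4 times, against 915 of all 8459 genes. MX2, an interferon-induced GTPase, had -0.79 and IRF1, a transcription factor of the response, -0.51. PHGDH, the first enzyme of serine synthesis, was at 1.34, 1, 4.43 and 10.04 RPKM in Control and 3.07, 2.76, 13.57 and 21.69 RPKM in BA at 0, 4, 12 and 24 h, with an adjusted p of 0.103 by limma, and in BF at 3.28, 0.99, 4.53 and 6.92 RPKM. SERPINA6, the plasma carrier of glucocorticoids, was at 607, 329, 67.3 and 138 RPKM in Control and 312, 175, 28.4 and 52.5 RPKM in BA (adjusted p 0.0776 by limma).

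The 29 genes of fatty acid oxidation and ketogenesis changed direction with time. Their median log2 ratio of BA to Control was -0.28 at 0 h, -1.0 at 4 h, 0.28 at 12 h and 0.62 at 24 h. Over all genes the medians were -0.10, -0.22, -0.06 and -0.17. Of the 29, 8, 0, 23 and 29 were higher in BA. These values by time were not rescaled, and in the BA column at 4 h ALB made up 30.9% of the RPKM sum. CPT1A, which admits fatty acids to mitochondria, was at 94.1, 195, 22.5 and 109 RPKM in Control and 87, 44.5, 77.3 and 183 RPKM in BA. CYP2C12, a steroid hydroxylase known for its high level in female rats, was at 10.3, 12.2, 330.3 and 126 RPKM in Control and 463, 80.3, 266 and 671 RPKM in BA, in livers of male rats. Its mean log2 ratio was 2.52 ± 2.32 (SD over 4 times) with an adjusted p of 0.222 by limma, and Control and BA were in the reverse order at 12 h. These genes were chosen after their values were seen.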
